A study of Mus musculus with 2 samples.

Results

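Immediate early genes are the genes a cell transcribes within minutes of a stimulus, before any new protein has been made. The set described here is Fos, Fosb, Jun, Junb, Egr1, Ier2, Atf3, Dusp1, Zfp36 and Cd69, chosen by name. They are 10 of the 32285 genes measured, and they held 403776 UMIs (unique molecular identifiers, each a counted RNA molecule) in the cells kept. The data are 2 single-cell RNA libraries of CD45+ leukocytes sorted from subcutaneous tumours of MFC cells, a mouse forestomach carcinoma line, in wild type BALB/c mice. The control library came from mice given PBS. The treated library came from mice given thonzonium bromide at 50 mg/kg every other day from day 6, with sacrifice on day 10. There is 1 library per group, and the labels do not give the number of mice in each. No comparison of the treatments therefore has a replicate check: intervals below cover counting error only, and differences are differences between 2 libraries.

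Fos, Fosb, Jun and Junb are subunits of AP-1, the dimeric transcription factor that couples MAP kinase and calcium signals to gene expression. Atf3 is a related stress-induced factor that can pair with them, Egr1 is a zinc finger factor driven by the same serum response pathway, and Ier2 is a small nuclear protein induced alongside them. Dusp1, a phosphatase that switches off p38 and JNK, and Zfp36 (tristetraprolin), which marks cytokine mRNAs for decay, are the feedback arm of the response. Cd69 is a surface lectin of recently activated lymphocytes that holds them in tissue by pulling down the egress receptor S1pr1. The same genes are known to be induced when tissue is digested to single cells, and these tumours were digested with collagenase and DNase at 37 °C for 30 min.

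The promoters of the AP-1 members are shown because these 4 genes gave most of the values described below. RefSeq promoter windows of GRCm38.p6 were used for 7 of the 10 genes. The 250 bases before the start site of 4 are printed 5′ to 3′ on the strand of the gene. They are Fos on the plus strand at chr12:85473640-85473889, Fosb on the minus strand at chr7:19310046-19310295, Jun on the minus strand at chr4:95052223-95052472 and Junb on the minus strand at chr8:84978749-84978998. Capitals mark TGACG, the core of the cAMP response element, and TGACNTCA, the AP-1 and ATF-type element, which contains TGACG where N is G.
Fos: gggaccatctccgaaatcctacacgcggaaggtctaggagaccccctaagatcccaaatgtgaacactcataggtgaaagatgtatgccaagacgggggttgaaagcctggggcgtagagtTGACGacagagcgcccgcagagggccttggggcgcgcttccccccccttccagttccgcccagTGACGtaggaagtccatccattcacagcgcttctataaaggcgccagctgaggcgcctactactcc
Fosb: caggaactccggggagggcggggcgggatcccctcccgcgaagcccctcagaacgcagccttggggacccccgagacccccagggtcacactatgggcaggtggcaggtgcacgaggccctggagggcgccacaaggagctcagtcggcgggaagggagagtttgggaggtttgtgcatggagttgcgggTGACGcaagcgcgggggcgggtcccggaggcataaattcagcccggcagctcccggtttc
Jun: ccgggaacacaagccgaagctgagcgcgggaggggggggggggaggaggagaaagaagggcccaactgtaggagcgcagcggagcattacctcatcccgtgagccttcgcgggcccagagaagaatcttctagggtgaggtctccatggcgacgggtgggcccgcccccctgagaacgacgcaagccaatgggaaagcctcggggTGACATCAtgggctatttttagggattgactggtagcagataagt
Junb: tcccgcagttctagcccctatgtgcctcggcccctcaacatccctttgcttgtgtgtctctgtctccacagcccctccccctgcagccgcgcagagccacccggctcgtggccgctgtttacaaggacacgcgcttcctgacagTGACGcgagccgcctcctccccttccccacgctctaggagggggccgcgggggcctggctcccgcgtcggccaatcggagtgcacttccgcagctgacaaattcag
On either strand, TGACG was found in 5 of the 7 windows (Fos, Fosb, Junb, Atf3 and Dusp1) and in 17.8% of the 32851 promoter windows of the same length. TGACNTCA was found in 2, Jun and Dusp1, against 7.49% of all windows. The classical AP-1 letters TGANTCA were in 0 of the 7 and in 6.75% of all windows. TATAAA was found in Fos alone, against 12.4% of all windows. A CArG box, the site of serum response factor, was found in Zfp36 alone, against 1.47% of all windows. Bases further than 250 before the start site were not searched. These are letter matches and not measured binding. On mm10, with GENCODE vM21 gene models, Fos lies at chr12:85473890-85477273, Fosb at chr7:19302696-19310051, Jun at chr4:95049034-95052222 and Junb at chr8:84974484-84978718. The deposited counts are per gene, so no exon or UTR is resolved.

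The filters left 6419 control cells at a median of 4300 UMIs and 5833 treated cells at a median of 7259, and 14 barcodes occurred in both libraries. Cells were gated on lineage markers: a cell had to show UMIs of at least 2 markers of a list, and that list had to hold at least 75% of its UMIs over 10 marker lists. The gates with at least 100 cells in each library were T cells (1065 control and 974 treated), NK cells (464 and 469), B cells (221 and 482), monocytes and macrophages (739 and 1472) and neutrophils (222 and 221). All markers of these 5 lists were detected in their own gate. Ungated cells made up 51.4% (control) and 35.4% (treated). The neutrophil gate stood apart in quality: haemoglobin genes took 13.2% of its control UMIs and 2.26% of its treated UMIs, and its median depth was 2240 and 3736 UMIs. In the T gate the haemoglobin shares were 0.390% and 0.129%.

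Among the 5 gates with at least 100 cells in each library, most of these genes were highest in myeloid cells. Of the 10, 8 were highest in the neutrophil or the monocyte/macrophage gate in both libraries, and 2, Fosb and Cd69, were highest in B cells in both. NK cells were the lowest of these 5 gates for 7 of 10 in both libraries. Values below are CPM, a gene's UMIs scaled to the same total of UMIs in each gate, with the control library first and the treated second.

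Among the AP-1 factors, Fos was at 1507 CPM in control and 1661 in treated monocytes/macrophages, and at 1219 and 2304 in neutrophils. In B cells it was at 514 and 290, in T cells at 185 and 92.5, and in NK cells at 60.6 and 37.3. The counting intervals of the 5 gates did not overlap in either library, and the highest gate exceeded the lowest 24.9-fold (control) and 61.7-fold (treated). Jun was more evenly spread than Fos: its highest gate, monocytes/macrophages, had 2213 and 1619 CPM, 3.21-fold and 4.44-fold above the lowest. Its T and NK values, 702 and 690 CPM (control) and 365 and 369 (treated), overlapped in their counting intervals. Junb was at 2535 and 3483 CPM in neutrophils, 1318 and 1399 in monocytes/macrophages, 1005 and 661 in B cells, 526 and 454 in T cells and 359 and 388 in NK cells. Junb thus had the same order of gates in both libraries, with no overlap between neighbours. Fosb had another order: 580 and 325 CPM in B cells, 260 and 134 in T cells, 224 and 117 in monocytes/macrophages, 153 and 185 in neutrophils and 125 and 79.5 in NK cells. Its neutrophil and NK intervals overlapped in the control.

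Atf3 was mainly myeloid. It was at 772 and 767 CPM in monocytes/macrophages and at 338 and 700 in neutrophils, but at 14.2 and 16.4 in T cells and 11.2 and 11.8 in NK cells. In B cells it rested on 8 and 38 UMIs, too few to compare, and its lymphoid gates overlapped as neighbours. Egr1 was highest in neutrophils, at 1681 and 1965 CPM, and B cells came next at 466 and 326. Monocytes/macrophages, at 222 and 195 CPM, were below B cells for this gene in both libraries. T cells had 111 and 74.8 CPM and NK cells 68.7 and 74.4, which overlapped in the treated library. Ier2 had a narrow range: 399 and 560 CPM in neutrophils, 274 and 286 in monocytes/macrophages, 270 and 212 in B cells, 143 and 136 in T cells and 106 and 129 in NK cells. Its monocyte/macrophage and B intervals overlapped in the control, and its T and NK intervals in the treated library.

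The feedback genes were strongly myeloid. Dusp1 was at 3010 and 4742 CPM in neutrophils, 1109 and 1308 in monocytes/macrophages, 218 and 159 in T cells, 98.2 and 69.5 in B cells and 56.7 and 51.4 in NK cells. Dusp1 was thus higher in T than in B cells, the reverse of Fos, Junb, Egr1 and Zfp36. Zfp36 was at 1726 and 2913 CPM in neutrophils and 1571 and 1667 in monocytes/macrophages. It was at 606 and 376 CPM in B cells, 150 and 117 in T cells and 59.8 and 71.4 in NK cells. Cd69 was a lymphoid gene here: 1001 and 455 CPM in B cells, 451 and 394 in T cells, 318 and 290 in NK cells, 210 and 125 in monocytes/macrophages and 200 and 171 in neutrophils. The last 2 gates overlapped in the control.

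**Figure D1:**
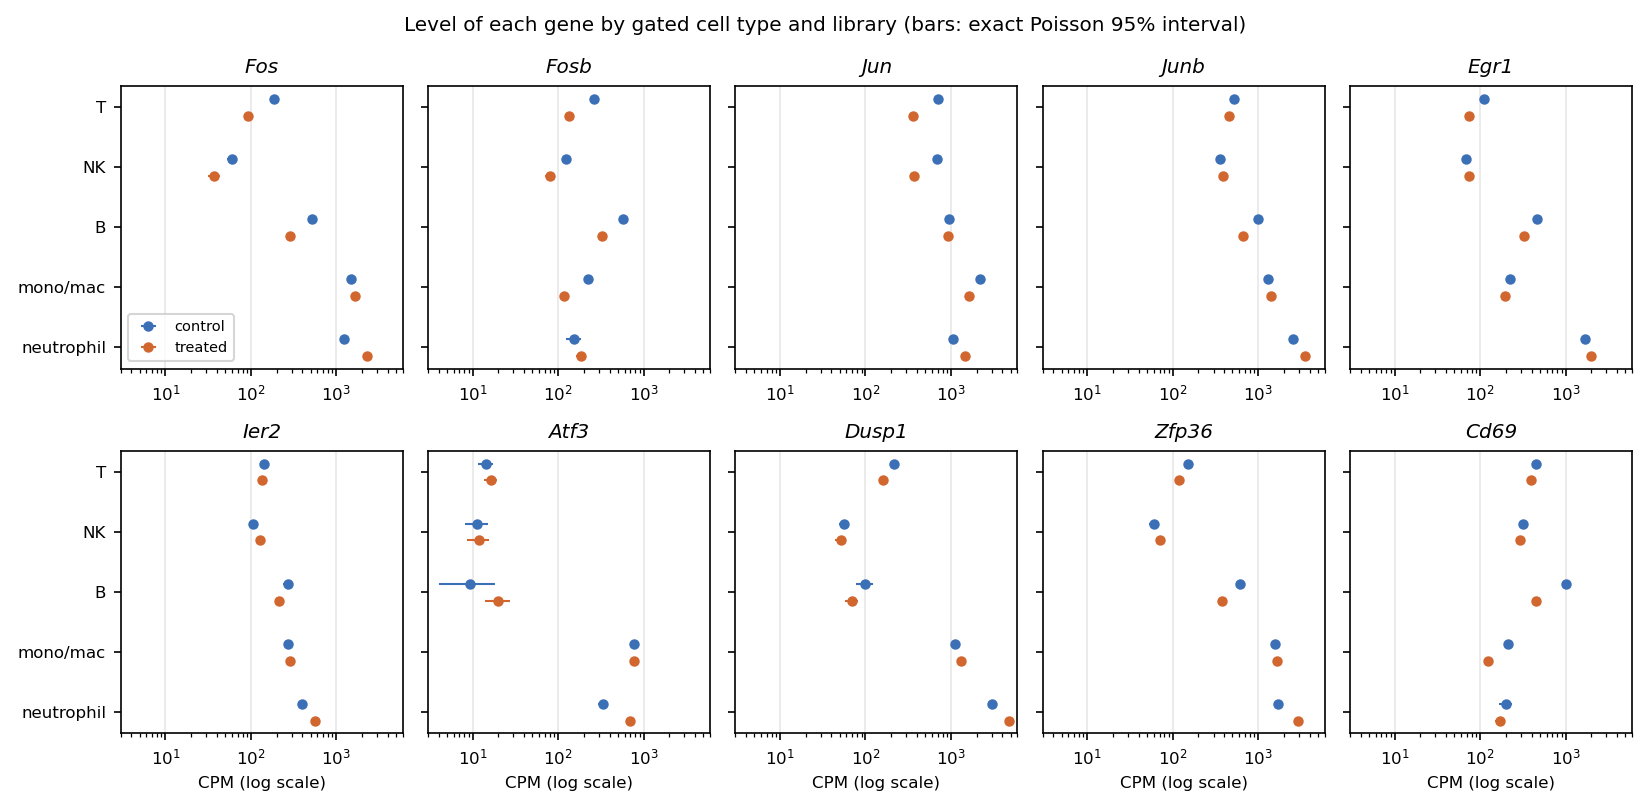
Level of each gene in CPM (x axis, log scale) in 5 gates (y axis) for the control (blue) and treated (orange) libraries, with exact Poisson 95% intervals. Fos, Atf3, Dusp1 and Zfp36 lie far to the right in monocytes/macrophages and neutrophils, while Fosb and Cd69 are highest in B cells.

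The smaller gates were described only. Plasmacytoid dendritic cells (91 and 30 cells) had Jun at 570 and 251 CPM and Cd69 at 382 and 170, while their Junb, at 76.3 and 61.0 CPM, was below that of NK cells. Conventional dendritic cells (44 and 60 cells) had Junb at 688 and 601 CPM and Fos at 90.7 and 107, a Fos level below that of B cells. The mast/basophil gate held the highest Jun level of any gate, 11108 CPM in the control, but had only 3 control and 7 treated cells. Its control Fos and Fosb levels, 3389 and 3326 CPM, also exceeded those of the 5 larger gates. The non-immune gate (71 and 27 cells, led by Cald1, Rhox5 and Col3a1, with Epcam at 0) had Jun at 1081 and 1141 CPM.

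Erythroid barcodes (198 control and 25 treated) were used to describe free RNA, since these cells should lack the set. Haemoglobin genes held 93.1% and 95% of their UMIs, so their CPM and their thinned shares are lowered by haemoglobin and are not set beside those of other gates. Per cell, without thinning, control erythroid barcodes had 0.0859 Fos and 0.253 Jun UMIs at a median depth of 11939 UMIs, where NK cells had 0.50 and 5.69 at a median of 6802. Scaled to UMIs outside haemoglobin, control Fos was at 99.8 CPM in erythroid, 60.7 in NK and 186 in T cells, and Jun was at 294, 691 and 705. On that scale Fos in NK cells was thus below the erythroid level, which rests on 17 UMIs, although it was higher per cell. Also below the erythroid level in NK cells were Dusp1 (88.1 CPM in erythroid and 56.8 in NK cells) and Zfp36 (88.1 and 59.9). So was Atf3 (17.6 and 11.3). These erythroid levels rest on 15 Dusp1, 15 Zfp36 and 3 Atf3 UMIs. Atf3 in control T cells (14.2 CPM) and B cells (9.36) was below the erythroid level as well. The part of free RNA in these low levels was not tested.

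Each cell was then thinned to 2000 UMIs, and cells with fewer were left out. Left out were 131 control and 27 treated T cells, 41 and 8 NK cells and 12 and 13 B cells. So were 155 and 137 monocytes/macrophages and 106 and 30 neutrophils. Of the rest, 6.21% and 8.03% of T cells and 6.86% and 13% of NK cells had no UMI of any member. In B cells these shares were 0.957% and 2.77%, and in monocytes/macrophages 0.342% and 1.27%. Plasmacytoid dendritic cells had higher shares, 20% and 41.4%, and dendritic cells had 8.82% and 5.56%. A treated neutrophil without a member UMI was not seen (0 of 191, which at a limit of 3 cells allows a share of up to 1.57%), whereas the control had 1.72% of 116.

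At this fixed depth the share of cells with a Fos UMI was 24.8% (exact 95% interval 22.1 to 27.7) of control and 14.4% (12.2 to 16.8) of treated T cells. Before thinning the shares were 41.6% and 31.0%. Erythroid barcodes, also before thinning, had a Fos UMI in 7.58% of 198 (control) and 0 of 25 (treated), which at a limit of 3 barcodes allows up to 12%. Jun was seen in 57.0% and 40.1% of T cells and in 62.4% and 41.9% of NK cells at fixed depth. Before thinning, Jun was seen in 72.2% and 64.5% of T cells, 81.7% and 70.1% of NK cells, and 16.7% and 4.00% of erythroid barcodes. For both genes fewer treated T cells had a UMI, and those that did had fewer: the mean among positive T cells was 1.96 and 1.45 UMIs for Fos and 2.83 and 2.05 for Jun. In B cells, Cd69 was seen in 71.3% and 47.5% of cells. In monocytes/macrophages the Fos shares were 68.0% and 74.2%, and Fosb shares were 24.3% and 17.6%.

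The next comparison asked where the levels differed between the treated and the control library within a lineage. A gene was called lower or higher when the ratio of treated to control CPM passed 1.5-fold, its counting interval excluded 1, and both libraries together had at least 50 UMIs of it in the gate. In T cells 3 of 10 members were called lower and 0 higher, where 3.61% of all genes tested were lower and 1.64% higher. The 3 were AP-1 subunits. Fos had 1329 control and 706 treated UMIs, and its ratio was 0.50 (0.456 to 0.548). Fosb had a ratio of 0.515 (0.477 to 0.556) and Jun of 0.520 (0.496 to 0.545). Junb, the other AP-1 member, was at 0.862 (0.823 to 0.903), short of the threshold. Egr1 (0.676), Dusp1 (0.727), Zfp36 (0.781) and Cd69 (0.873) were also below 1 without a call, and Ier2 was at 0.949. The median log2 ratio was -0.41 over the members and -0.06 over all genes tested.

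NK cells had the same 3 genes called lower, 3 of 10 against 2.22% of all genes, and 0 called higher against 2.05%. Jun went from 690 to 369 CPM (ratio 0.535, 0.502 to 0.571), Fosb had 0.635 (0.549 to 0.733) and Fos 0.616 (0.498 to 0.760). The rest of the set was not called in NK cells: Junb was at 1.08, Egr1 at 1.08, Atf3 at 1.05, Zfp36 at 1.19 and Ier2 at 1.22, while Dusp1 was at 0.906 and Cd69 at 0.910 (0.839 to 0.987). The median log2 ratio over the 10 was -0.03, close to that over all genes, 0.02. Fos in NK cells rested on 232 and 149 UMIs.

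B cells had the broadest difference. Of 9 members with enough UMIs, 5 were called lower, where 7.81% of all genes were, and 0 higher, where 2.42% were. Cd69 went from 1001 to 455 CPM, a ratio of 0.454 (0.413 to 0.50). Fosb (0.561), Fos (0.565), Zfp36 (0.620) and Junb (0.658) followed. Jun was the exception among the AP-1 genes, at 956 and 922 CPM and a ratio of 0.964 (0.887 to 1.05), whereas it was called lower in T and NK cells. The 9 members had a median log2 ratio of -0.60, against -0.09 for all genes. Markers of other lymphocytes differed in the same gate: T cell markers summed to 64.3 and 17.1 CPM and NK markers to 73.6 and 12.4 CPM, beside 5345 and 5484 CPM of B cell markers. Their part in the result was not tested.

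In monocytes/macrophages 2 of 10 were called lower, where 4.41% of all genes were, and 0 higher, where 1.6% were. They were Fosb, from 224 to 117 CPM (0.521, 0.482 to 0.563), and Cd69, from 210 to 125 CPM (0.597, 0.553 to 0.646). Jun, the member these cells carried most in the control (2213 CPM), had a ratio of 0.732 (0.715 to 0.749), without a call. The next most abundant members were closer to level: Fos had a ratio of 1.10, Zfp36 1.06, Junb 1.06, Atf3 0.993 and Dusp1 1.18. The summed set had 9420 and 9145 CPM, a ratio of 0.971, while in T cells the sum had a ratio of 0.703, in NK cells 0.810 and in B cells 0.664.

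Neutrophils had the opposite direction, and the count depends on how they were gated. There, 4 of 10 members were called higher, where 19.9% of all genes in this gate were, and 0 lower, where 6.81% were. Atf3 had a ratio of 2.07 (1.78 to 2.41), Fos 1.89 (1.75 to 2.05), Zfp36 1.69 and Dusp1 1.58. When S100a8 and S100a9, whose transcripts are very abundant, were left out of the gate's markers, 62 control and 133 treated cells remained and 0 members were called higher. The ratios were then 1.13 for Fos, 1.17 for Zfp36, 1.27 for Dusp1 and 0.958 for Atf3. With haemoglobin, mitochondrial and ribosomal protein UMIs taken out of the total, 2 were called higher. With Leiden clusters in place of gates, 8 were called higher. With each cell counted alike, 8 passed 1.5-fold higher, a count made without intervals or the minimum of UMIs. In the lowest of 3 depth bins (110 control and 38 treated cells) the Fos ratio was 1.05, and in the highest it was 2.09. The 9 lists of other cell types summed to between 1.49 and 347 CPM each in the control gate and between 0 and 766 in the treated one. The highest in both was the monocyte/macrophage list, at 347 and 766 CPM, while T cell markers were at 234 and 60.8 CPM, and only the mast/basophil list was at 0, in the treated gate. The part of these differences in the result was not tested.

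**Figure D2:**
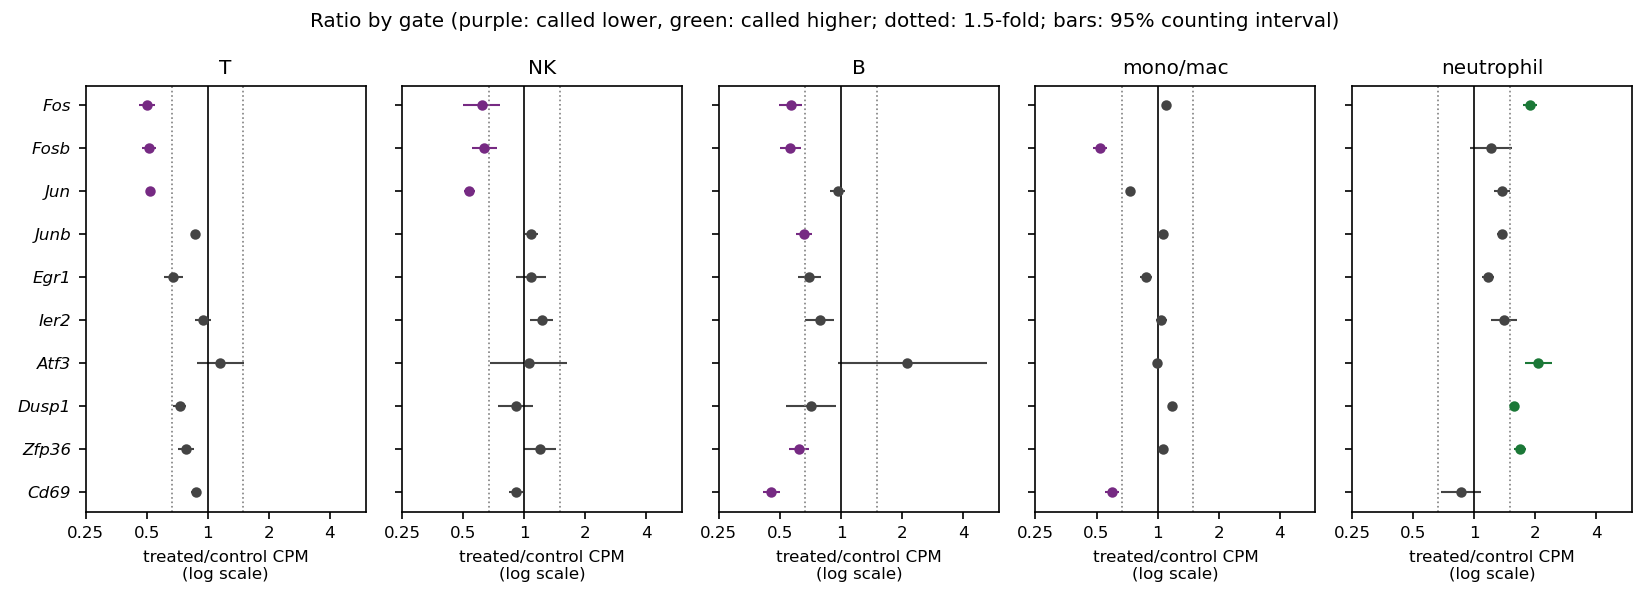
Ratio of treated to control CPM (x axis, log scale) for each gene (y axis) in each gate, with 95% counting intervals, a line at 1 and dotted lines at 1.5-fold. Fosb lies left of the lower dotted line in T, NK, B and monocyte/macrophage gates, and the 4 genes called higher are all in neutrophils.

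Fosb was thus called lower in 4 of the 5 gates and Fos in 3. Over the alternative ways of filtering, gating and scaling, Fos, Fosb and Jun in T cells passed 1.5-fold lower in 11 of 11, and Fosb in monocytes/macrophages in 11 of 11. In B cells Cd69, Fos and Fosb did so in 10 of 10, Zfp36 in 9 and Junb in 6, with Junb ratios from 0.626 to 0.715. In NK cells Jun and Fosb did so in 10 of 10 and Fos in 8 of 10. At a 2-fold threshold, Cd69 in B cells and Atf3 in neutrophils were the 2 calls left. The share of all genes lower by 2-fold was then 0.833% in T, 0.46% in NK, 1.88% in B, 1.22% in monocyte/macrophage and 3.86% in neutrophil gates. The share higher by 2-fold was 0.62%, 0.436%, 0.913%, 0.383% and 8.62% in the same order.

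**Figure D3:**
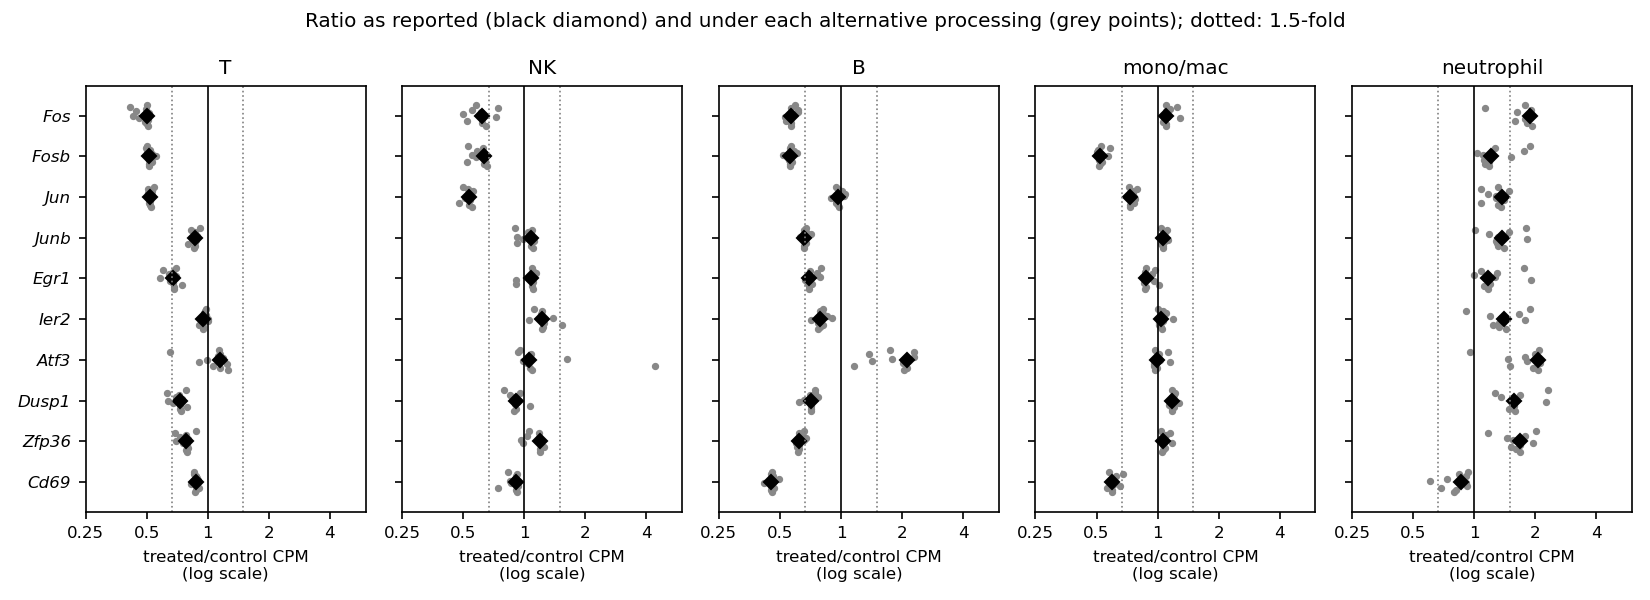
Ratio of treated to control CPM (x axis, log scale) as reported (black diamond) and under each alternative (grey points) for each gene and gate. Points for Fos, Fosb and Jun in T cells cluster near 0.5, while neutrophil points for Atf3 run from 0.958 to 2.12.

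The T gate was then divided by Cd8a, Cd8b1, Cd4 and Foxp3. Fosb was called lower in 4 of 4 subgates, with ratios of 0.511 in CD8 T cells, 0.524 in conventional CD4 T cells, 0.400 in regulatory T cells and 0.517 in other T cells. Jun was called lower in 3 of 4 and had a ratio of 0.702 in conventional CD4 cells, where the counts were 337 and 158 UMIs. Fos was called lower in 3 of 4, with the lowest ratio in conventional CD4 cells, 0.304 (0.208 to 0.436), from 425 to 130 CPM. In regulatory T cells Fos had 0.696 (0.509 to 0.942). Regulatory T cells carried the most Dusp1 of any T subgate, 721 and 536 CPM, against 115 and 130 in CD8 cells. Dusp1 was called lower only in conventional CD4 cells, at 0.430, and Atf3 was called higher in CD8 cells, from 48 to 96 UMIs (11.5 to 19.7 CPM). Atf3 in other T cells went the other way, with 38 and 7 UMIs, under the 50 needed for a call. These subgates were not compared with each other by a test. The share of all genes called was computed for whole gates only, so the counts of calls in subgates have no background beside them.

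Monocytes/macrophages were divided by their share of complement C1q genes among C1q and monocyte genes. Fosb and Cd69 were each called lower in 3 of 3 subgates. Here too the share of all genes called was not computed within subgates. For Fosb the ratio was 0.576 in monocytes, 0.477 in the cells between and 0.286 in complement-high macrophages, where the level went from 373 to 107 CPM. Cd69 in complement-high cells rested on 50 and 29 UMIs. Jun was called lower in complement-high cells alone, at 0.656, and stood at 0.724 in monocytes and 0.734 in the cells between. Fos had ratios of 1.16, 0.981 and 0.804 in these subgates. Atf3 was highest in monocytes, at 815 and 820 CPM, and lower in complement-high cells, at 574 and 417.

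**Figure D4:**
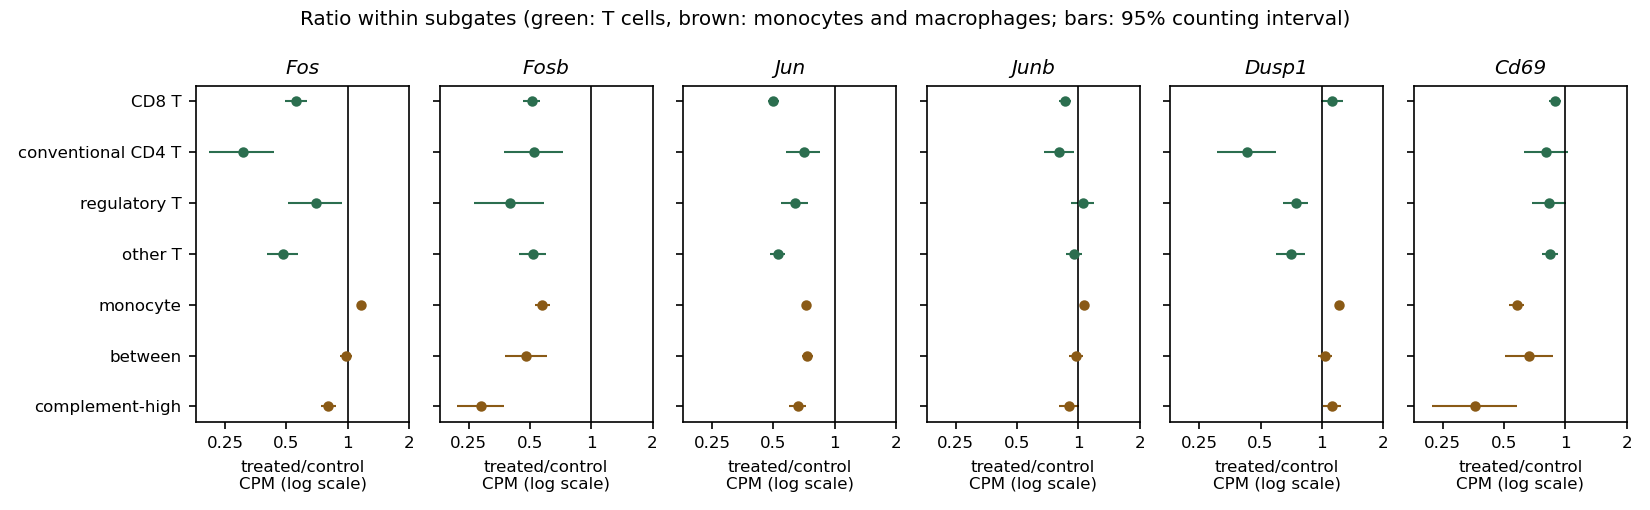
Ratio of treated to control CPM (x axis, log scale) for 6 genes in 4 T cell subgates (green) and 3 monocyte and macrophage subgates (brown), with 95% counting intervals. Fosb lies left of 1 in all 7 subgates, from 0.286 to 0.576.

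Depth and mitochondrial content were looked at within bins, because the treated library was deeper. In T cells Fos, Fosb and Jun each had a ratio under 1 in 6 of 6 bins (3 bins of depth, and mitochondrial shares under 2%, 2% to 5% and 5% to 20%), and each passed 1.5-fold in 5 of 6. The Fos ratio was 0.397 in the lowest depth bin, 0.361 in the middle one and 0.822 in the highest. In NK cells Jun passed 1.5-fold in 5 of 6 bins, Fos in 4 and Fosb in 3. In NK cells under 2% mitochondrial UMIs (93 and 72 cells) Fos had a ratio of 1.26, Junb of 1.85, Egr1 of 3.12 and the summed set of 1.24. In B cells Fosb and Cd69 passed it in 5 of 5 bins, while Junb was at 1.07 in B cells of 5% to 20% mitochondrial UMIs. In monocytes/macrophages Jun had a ratio of 1.03 in the lowest depth bin and under 1 in the other 5 bins.

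Over whole libraries the picture was another one. With all kept cells together Fos went from 355 to 727 CPM (ratio 2.05), Zfp36 had 2.05, Dusp1 2.01 and Atf3 2.22, while Jun was at 0.985 and Fosb at 0.689. Fos was therefore higher in the whole treated library and lower in its T, NK and B gates. Monocytes/macrophages were 11.5% of control and 25.2% of treated kept cells. Giving each gate, ungated cells included, its control level but its treated share of UMIs put Fos at 574 CPM, 1.62-fold above the control, Atf3 1.84-fold, Zfp36 1.65-fold and Dusp1 1.56-fold above. For Jun the same weighting gave 1196 CPM, above both the control (953) and the treated value (939). Ungated cells, which these weights treat as 1 gate, had Fos at 209 and 497 CPM.

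The members were next compared over cells of 1 gate and 1 library, at 2000 UMIs per cell. Cells with fewer UMIs were left out, among them 106 of 222 control and 30 of 221 treated neutrophils. Over the 10 gate and library sets, 386 of 432 pairs had a Pearson r above 0, but only 94 reached 0.2. Cells share a library and the counts are sparse, so these r are descriptions. The median r over pairs was highest in monocytes/macrophages, 0.18 (control) and 0.16 (treated), and lowest in treated NK cells, 0.043. Thinned to 1000 UMIs, the lowest was treated T cells, 0.051, beside 0.055 in treated NK cells. The observed share of cells with both genes, over the share expected from each gene alone, had another order. Its median over pairs was 1.19 and 1.17 in NK cells and 1.18 and 1.16 in T cells. B cells had 1.07 and 1.14, monocytes/macrophages 1.10 and 1.08, and neutrophils 1.11 and 1.01. The more cells show a gene, the closer to 1 the upper limit of this ratio is. Jun, for instance, was seen in 87.3% of control monocytes/macrophages. Gates that differ in detection are therefore not on the same scale. Junb was the member most alike to the rest, with a median r of 0.17, followed by Fos at 0.15. Cd69 at 0.040 and Atf3 at 0.051 were the least alike over all gates together. Atf3 differed by gate, with a median r of 0.21 (control) and 0.25 (treated) in monocytes/macrophages. It had 0.13 and 0.050 in neutrophils, 0.027 and 0.041 in T cells, and in the treated library 0.016 in NK and 0.027 in B cells. Cd69 was highest in B cells, 0.13 and 0.077, where the medians over all pairs were 0.13 and 0.11. Elsewhere Cd69 had 0.086 and 0.034 in T cells and 0.024 and 0.044 in NK cells. In monocytes/macrophages it had 0.017 and -0.00064, and in neutrophils 0.051 and -0.049.

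The pairs with the highest median r were Fos with Junb (0.23, from 0.085 to 0.53), Junb with Ier2 (0.22), Fos with Fosb (0.21) and Egr1 with Ier2 (0.20). Jun with Fos, the classical AP-1 dimer, had 0.12. The leading pairs differed by lineage. In neutrophils Junb with Dusp1 reached 0.70 (control) and 0.38 (treated), and Egr1 with Dusp1 reached 0.64 in the control. In monocytes/macrophages Junb with Zfp36 led in both libraries, at 0.44 and 0.43. In T cells Fos with Fosb led in the control, at 0.26, and no pair reached 0.2 in the treated library. Among B cells Fos with Fosb led in the control, at 0.32, and Fosb with Jun in the treated library, at 0.27. Dusp1 with Cd69 had a median r of -0.0092.

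**Figure D5:**
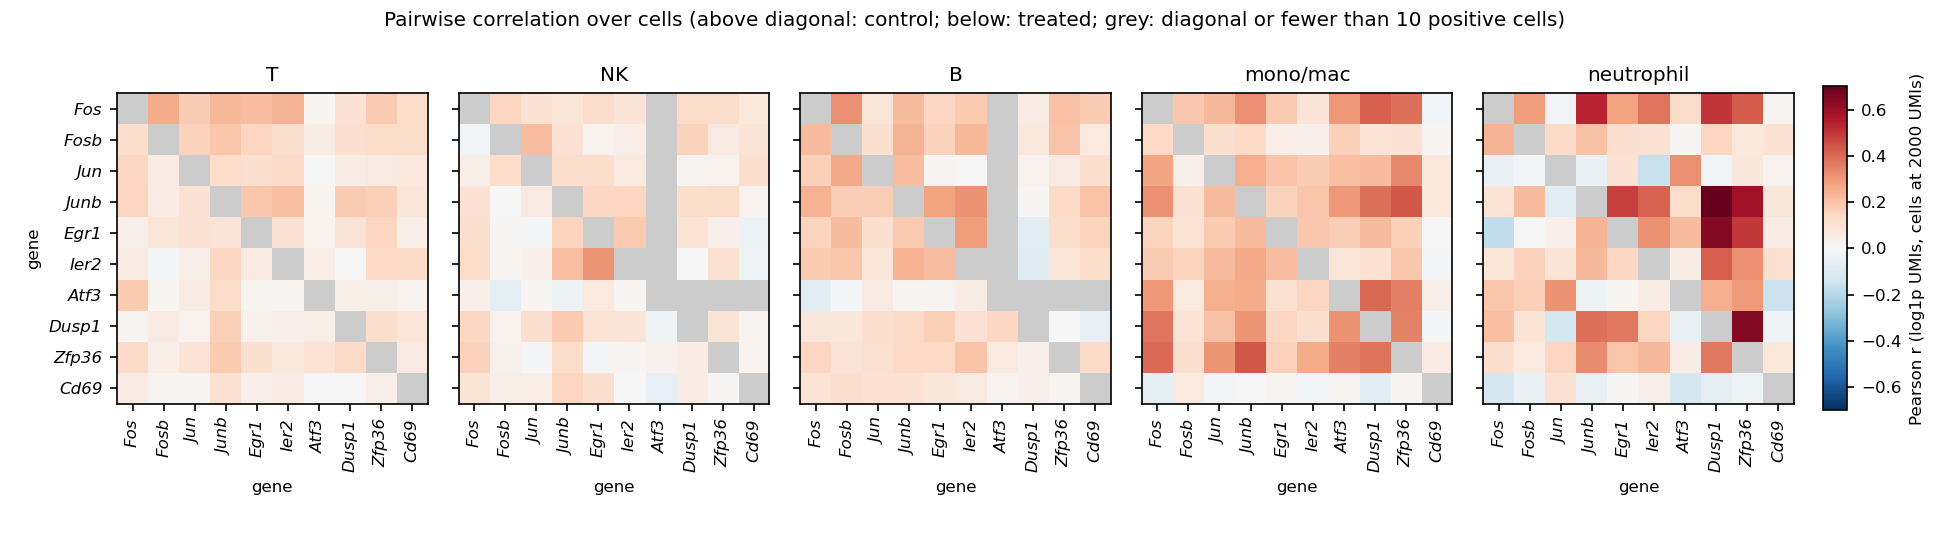
Pearson r over cells thinned to 2000 UMIs for each pair of genes (both axes list the genes), in 5 gates, with the control above and the treated library below the diagonal; red is positive, blue negative and grey not computed. The darkest cells are pairs of Junb, Egr1, Dusp1 and Zfp36 in control neutrophils, and the Cd69 row and column are pale in all gates.

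Set members detected together also varied. At fixed depth a median of 6 of the 10 were seen per cell in both myeloid gates of both libraries, 4 in B cells, 3 in control and 2 in treated T cells, and 2 in NK cells. Cells with 5 or more were 21.2% of control and 11.2% of treated T cells, 9.69% and 4.56% of NK cells and 49.8% and 32.6% of B cells. They were 67.1% and 71.7% of monocytes/macrophages. The 10% of T cells with the most member UMIs held 30.4% (control) and 29.9% (treated) of these UMIs.

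The genes most like the summed set across the same 10 sets of cells, of 1760 candidates with a median r of 0.0046, were Btg2 (median r 0.25), an antiproliferative early response gene, Klf6 (0.25) and Klf2 (0.23), Kruppel-like factors, Btg1 (0.25) and Jund (0.24), the constitutive Jun relative. Malat1, Ppp1r15a, Rhob and Nfkbia followed. Btg2 ranged from 0.15 in treated NK cells to 0.55 in control neutrophils.

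Other gene lists were read beside the members with the same calls. The shares of all genes called lower, against which their counts are read, were 3.61% in T, 2.22% in NK, 7.81% in B, 4.41% in monocyte/macrophage and 6.81% in neutrophil gates. The shares called higher were 1.64%, 2.05%, 2.42%, 1.6% and 19.9% in the same order. Of 18 other immediate early and early response genes, 4 of 17 measured were called lower in T cells and 1 higher. Klf4 had a ratio of 0.421 and Rhob of 0.455, and Ier3 was called higher, at 2.14. In B cells 8 of 13 were called lower and 0 higher, led by Myc at 0.352 and Sik1 at 0.371. In NK cells 4 of 16 were called lower and 2 higher, Nr4a1 (15.9 and 43.9 CPM, 2.75) and Gadd45b (1.71). In monocytes/macrophages 0 of 16 were called lower and 1 higher, Klf2 at 1.55. In neutrophils 6 of 15 were called higher and 0 lower, where 19.9% of all genes were higher, with Egr3 at 2.33 and Nr4a1 at 1.95.

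Of the AP-1 and bZIP genes beyond the members, 0 of 7 measured in T cells were called, with Jund at 819 and 754 CPM. In B cells 2 of 4 were called lower, Jund (0.641) and Crem (0.254), while Crem was called higher in NK cells (1.53). In monocytes/macrophages 0 of 8 and in neutrophils 0 of 7 were called. The NF-kB feedback genes, which restrain inflammatory signalling, had 0 of 7 called in T cells, NK cells and monocytes/macrophages. In B cells 5 of 7 were called lower, among them Bcl3 (0.507), Rel (0.518) and Tnfaip3 (0.518), and in neutrophils 2 of 7 were called higher, Bcl3 (1.80) and Socs3 (1.63), in a gate where 19.9% of all genes were.

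The relatives of the feedback members did not all follow them. Dusp2, a nuclear MAP kinase phosphatase, was called lower in B cells (0.557) and neutrophils (0.287), and stood at 1.23 in T cells. Zfp36l1 was called lower in T cells (0.622) and B cells (0.636) and higher in neutrophils (1.56). Of the upstream kinases and factors, 0 of 13 were called in T cells and in monocytes/macrophages, 0 of 12 in NK cells and 1 of 10 in B cells, Mapk8 at 0.520. In neutrophils 3 of 8 were called higher, against the same 19.9%, among them Mapk3 at 1.75. Of the residence and egress genes beside Cd69, S1pr1 had a ratio of 1.09 in T cells and 0.981 in B cells. Cxcr6, a receptor of tissue-resident T cells, was called higher in T cells (1.95), and Klf2, which drives S1pr1, was called lower in B cells (0.533). The 5 reference genes (Actb, B2m, Ptprc, Eef1a1 and Malat1) had 0 calls in each of the 5 gates.

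Some heat shock genes, which like the members respond to tissue digestion, were also lower. Calls of lower were made for 3 of 11 in T cells, 4 of 10 in NK cells, 10 of 10 in B cells, 2 of 10 in monocytes/macrophages and 6 of 10 in neutrophils, and 0 were called higher in these gates. Hspa1b had ratios of 0.407 in T cells, 0.410 in NK cells, 0.552 in monocytes/macrophages and 0.391 in neutrophils. Hspa8, another member of that family, was at 1.03 in T cells, 1.01 in NK cells and 0.976 in neutrophils, with no call. In B cells Hspa8 was called lower, at 0.603 (0.564 to 0.644), and in monocytes/macrophages it was at 1.27 without a call. The 4 haemoglobin genes, a sign of free red cell RNA, were all called lower in T, NK, B and neutrophil gates and 3 of 4 in monocytes/macrophages. The part of digestion, free RNA and treatment in the differences was not tested, and with 1 library per group treatment cannot be told apart from the preparation of each tumour.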

How the data were processed

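The deposited files hold raw UMI counts per gene and barcode for 2 libraries. Per the file headers the software was Cell Ranger 6.1.2. Seurat 3.0, R 3.5.3 and the mm10 build are named in the submitters' processing notes. Libraries had 7803 and 6724 barcodes with 46348444 and 52973138 UMIs. Per the labels, a 10x Genomics 3′ kit was used.

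A cell was kept with 200 or more genes and no more than 20% of its UMIs mitochondrial. No doublet caller was run: none was removed, and leaving out the 5% deepest cells was an alternative. Gates needed 2 markers and 75% of marker UMIs. UMIs were summed per gate and library and scaled to CPM, with exact Poisson 95% intervals. Intervals of ratios are exact conditional binomial ones, and those of shares are Clopper-Pearson, except that a share of 0 is given with the limit that 3 counts of the total set. Cells of 1 library are not replicates, so no p-value is given. CPM is a share of a gate's RNA, so fewer positive cells and less RNA per cell are told apart only by the thinned shares. Cells were thinned to 2000 UMIs for shares and correlations, and cells with fewer UMIs were left out. Leiden clusters (leidenalg 0.10.2, scanpy 1.11.5, 2000 variable genes, 30 components, 15 neighbours, resolution 1) made without the members were an alternative. Calculations used Python 3.11.15, numpy 2.4.6, scipy 1.17.1 and pandas 2.3.3 and were tested on simulated data.

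The members, lists, gates and thresholds were chosen with earlier results of these data known. Named genes are the 10 members and, of each list, the most abundant measured gene, plus up to 2 genes at each end of the range of ratios. The 10 genes of like pattern had a UMI in at least 5% of thinned cells of each gate and library, and 1 of them is not reported here.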

Additional observations from a re-analysis of the deposited data

Results flagged for a closer look

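Among the 5 gates with at least 100 cells in each library, for 2 members the ratio of treated to control went past 1.5-fold in one gate and past it the other way in another. Fos was higher in treated neutrophils and lower in treated T, NK and B cells. The difference of log2 ratios was 1.92 between neutrophils and T cells, 1.62 between neutrophils and NK cells, and 1.74 between neutrophils and B cells. Zfp36 was higher in treated neutrophils and lower in treated B cells, with a difference of log2 ratios of 1.45. None of these differences was tested, since each group has 1 library. With neutrophils gated without S100a8 and S100a9, the neutrophil ratios of Fos and Zfp36 were 1.13 and 1.17.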

How the results depend on the processing

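No paired analysis was possible because each group has 1 library. The 200 alternative values covered the summed set, the counts of calls, the count of members highest in a myeloid gate and the median r over pairs. Of these, 158 stayed and 42 moved. To stay, a ratio had to lie within counting error, a count within 1.5 times, and a median r within 1 standard deviation of r over pairs. Of the 520 values for single members, 409 stayed and 110 moved, and 1 reversed: Atf3 in neutrophils at 0.958 without S100a8 and S100a9 (chosen after seeing the data). At a 2-fold threshold, the members called lower were 0 in T, 0 in NK, 1 in B and 0 in monocyte/macrophage gates, and 1 was called higher in neutrophils. With Leiden clusters the summed ratio was 0.688 in T, 0.739 in NK, 0.626 in B, 1.05 in monocytes/macrophages and 1.90 in neutrophils, where 8 were called higher. Thinned to 2000 UMIs, it was 0.679 in T (5 called lower), 0.760 in NK, 0.992 in monocytes/macrophages and 1.45 in neutrophils (1 called lower). With each cell counted alike it was 0.661 in T, 0.724 in NK, 1.04 in monocytes/macrophages and 1.89 in neutrophils. Counts for this setting used the 1.5-fold threshold alone, without intervals or the minimum of UMIs. They were 6 lower in T, 1 lower in monocytes/macrophages, 8 higher in neutrophils and 1 higher in B. Without haemoglobin, mitochondrial and ribosomal protein UMIs the summed ratio was 0.722 in T, 0.722 in B (3 called lower) and 1.29 in neutrophils (2 called higher). A gate purity of 90% gave 0.748 in NK (1 called higher) and 1.38 in neutrophils, and at least 500 genes per cell 1.43 in neutrophils. Without the 5% deepest cells it was 0.691 in B, 0.983 in monocytes/macrophages and 1.61 in neutrophils. Equal subgate shares gave 0.730 in T and 0.959 in monocytes/macrophages. Gates without S100a8 and S100a9 gave 0.999 in monocytes/macrophages and 1.13 in neutrophils, with 0 called higher. The cause of these moves was not tested. Depth limits Atf3 in lymphoid gates, which had 8 control UMIs in B cells.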
